A study of Mus musculus with 20 samples.

Results

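Described here are 8 genes linked to hereditary ataxias other than spinocerebellar ataxia type 3: Fgf14, Elovl4, Elovl5, Afg3l2, Ttbk2, Eef2, Ppp2r2b and Rora. They were chosen by symbol, as the rows of the count table whose Ensembl gene ID maps to these names, and make up 8 of the 29200 gene IDs in the table. Averaged over the 20 libraries, all 8 reached at least 50 counts and were among the 12153 genes tested. The human counterparts of the first 7 are mutated in spinocerebellar ataxias, and that of Rora in a broader disorder that can include ataxia.

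Cerebellar polyA RNA of male C57BL6/N mice was sequenced in 4 groups of 5 mice, so that each of the 20 libraries stands for 1 mouse. WT/WT mice carry wild-type alleles, and 304Q/304Q mice carry a knock-in of 304 repeats in both alleles of Atxn3, the gene of spinocerebellar ataxia type 3. Both genotypes were taken at 2 months and at 12 months of age. The knock-in came from zinc-finger editing, holds an interrupted CAACAG repeat, and is described as a line from a founder, so that effects of the line and of the repeat cannot be told apart. The sample labels name ataxin-2 for the wild-type alleles, whereas the study's methods name Atxn3. Between 12695367 and 15136892 reads per mouse were counted on genes in the 2-month WT/WT group, and 13246385 to 27636687 in the 2-month 304Q/304Q group. At 12 months the totals were 12765814 to 14305694 for WT/WT and 11385380 to 13897750 for 304Q/304Q mice. Atxn3 itself had 279.7 ± 42.3 and 193 ± 31.1 normalized counts (SD, n = 5), WT/WT first and 304Q/304Q second, at 2 months, and 224 ± 16.1 and 205 ± 17.7 at 12 months. Its fold change on the log2 scale was -0.54 (adjusted p = 0.0916) at 2 months and -0.13 (adjusted p = 0.510) at 12 months, so that neither age passed the test, and gene counts do not show the repeat.

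The spinocerebellar ataxias are inherited disorders in which cerebellar circuits, and Purkinje cells above all, fail. Some are caused by expanded polyglutamine tracts, as in Atxn3, and others by changes in genes with varied roles in the same neurons. Fgf14 binds voltage-gated sodium channels at the axon initial segment, Elovl4 and Elovl5 extend fatty acids, Afg3l2 is a protease of the inner mitochondrial membrane, and Eef2 moves the ribosome along the mRNA. Ttbk2 is a kinase needed to start a cilium, Ppp2r2b is a regulatory subunit of protein phosphatase 2A, and Rora is a nuclear receptor that Purkinje cells need to mature. All 9 Purkinje cell and all 7 granule cell markers listed were detected and tested, so that the tissue holds the cells its label calls for. In bulk RNA, fewer cells of a type and less RNA per cell cannot be told apart, which holds for every value below.

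No member was called different between the genotypes by the quasi-likelihood test of edgeR, where called means a Benjamini-Hochberg adjusted p over all genes of at most 0.05. At 2 months 0 of the 8 genes were called, where 0.0494% of all genes tested were, with 0 members under an unadjusted p of 0.05 and 0 called by DESeq2. At 12 months 0 of 8 were called against a background of 12.5%, with 1 member (Elovl5) under an unadjusted p of 0.05 and 0 called by DESeq2. A further limit of 0.5 on the log2 fold change was met by 3.09% of all genes at 12 months. The values of the 2 genotypes overlapped for each of the 8 members at 12 months, whereas 8.94% of all genes had groups that did not overlap. With age, 2 of 8 members (Fgf14 and Elovl4) fell in WT/WT mice, against 11.5% of all genes called, with 5 members under an unadjusted p of 0.05 and 3 called by DESeq2. In 304Q/304Q mice 1 of 8 (Eef2) rose, against 7.26% of all genes, with 1 under an unadjusted p of 0.05 and 1 called by DESeq2. Only Fgf14 also passed the limit of 0.5, which 2.58% of all genes passed in the WT/WT and 2.28% in the 304Q/304Q group. Groups did not overlap for 1 member in WT/WT mice (Fgf14) and for 1 in 304Q/304Q mice (Eef2), beside 6.57% and 7.8% of all genes. The test of whether the genotypes differ in their change with age called 0 of 8 members, with 1.95% of all genes called, 1 member (Fgf14) under an unadjusted p of 0.05 and 0 called by DESeq2. The median log2 fold change of the 8 members was -0.075 at 2 months and 0.10 at 12 months between genotypes, and -0.14 in the WT/WT and -0.047 in the 304Q/304Q group with age, where the medians over all genes were -0.0016, -0.0039, 0.0017 and -0.0039. With 8 genes, a share of 1 or 2 lies too near the background to be a result about the group.

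**Figure D1:**
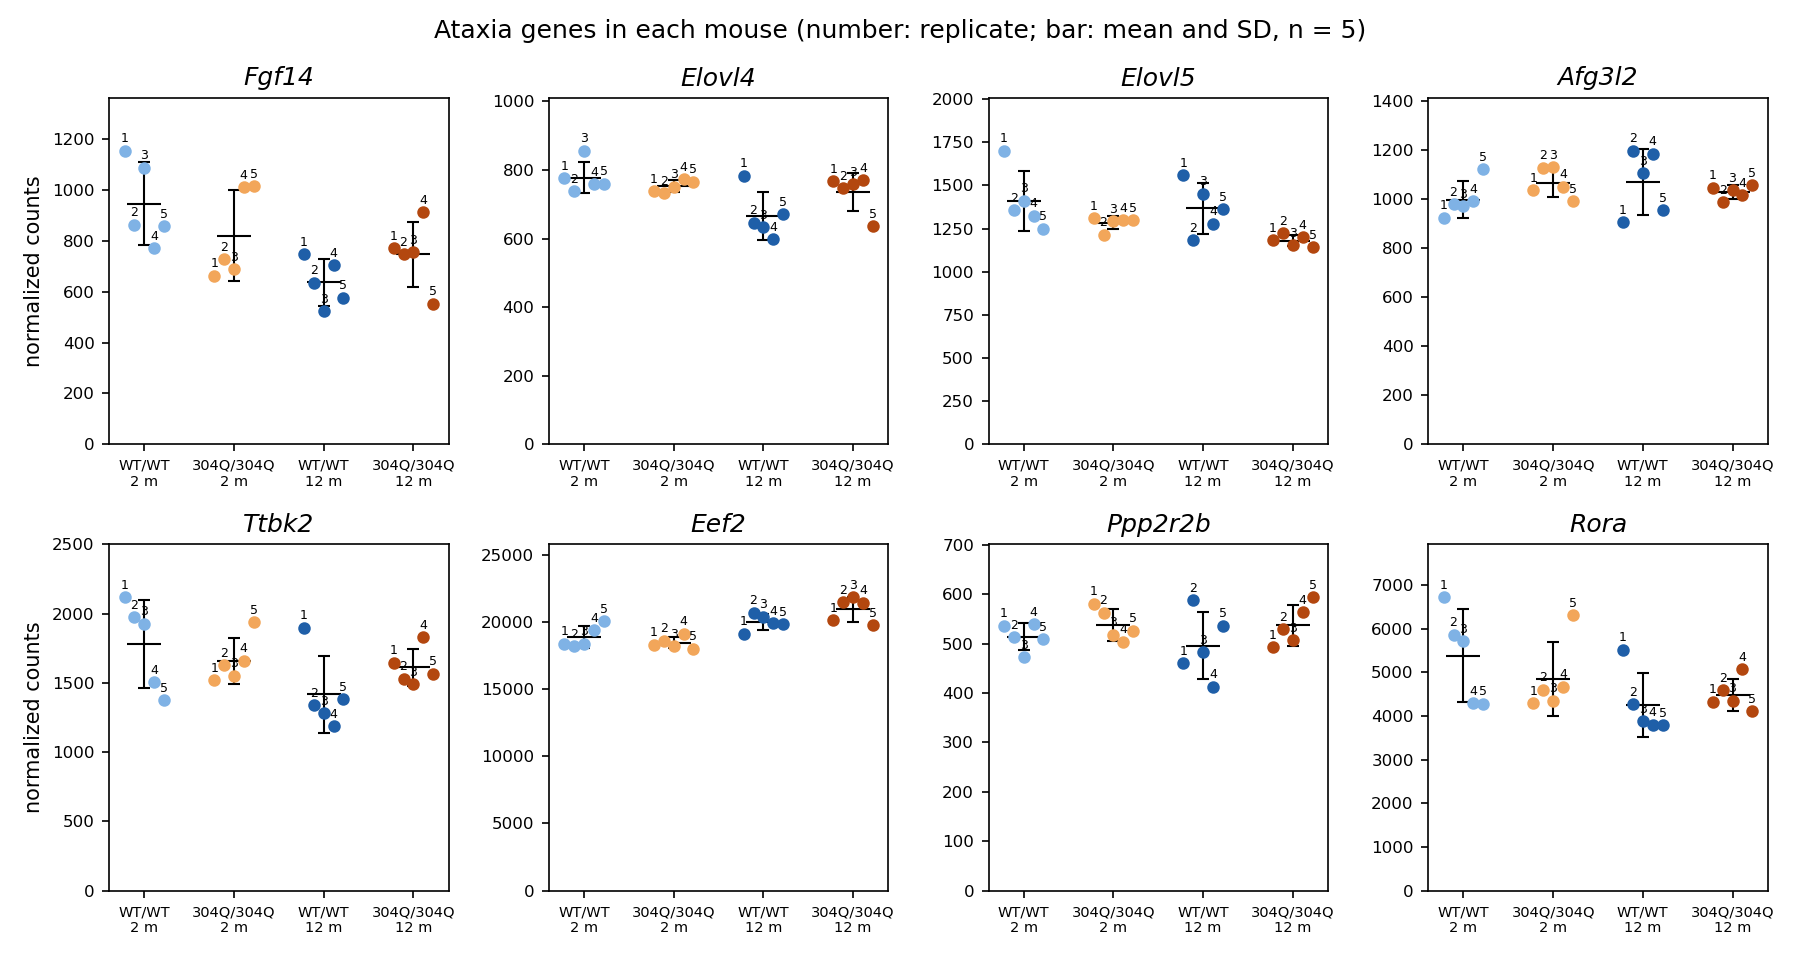
Normalized counts (counts scaled to the mean library size) of the 8 genes in each mouse, by genotype and age; numbers give the replicate, and bars the mean and SD of 5 mice. Fgf14 lies lower in all 12-month WT/WT mice than in all 2-month WT/WT mice, and Eef2 higher in all 12-month than in all 2-month 304Q/304Q mice.

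Libraries did not all have the same dependence on base composition, and this moved with several members. A GC slope was fitted to each library, as the change of log2 CPM (counts scaled to a common library total), relative to the mean of all libraries, per 10 points of the genes' GC content. Slopes ranged from -0.20 to 0.076 in 2-month WT/WT, -0.14 to 0.040 in 2-month 304Q/304Q, -0.077 to 0.21 in 12-month WT/WT and -0.072 to 0.038 in 12-month 304Q/304Q mice. Replicate 1 of the 12-month WT/WT mice stood apart from its group, with a slope of -0.077 where the other 4 lay above 0. Its mean chi-square per degree of freedom against the other 4 over all genes was 20.9, beside 9.36 to 12.02 for the others. Over the 20 libraries the slope correlated with the log2 CPM of Ttbk2 (r = -0.93), Rora (-0.91), Fgf14 (-0.82) and Elovl4 (-0.76). These 4 have the lowest GC content of the members, 42.7% to 43.6% of exonic bases, and Elovl4, the highest of them, lies at percentile 19.98 of the genes tested. For Afg3l2 r was 0.64, for Eef2 0.40, for Elovl5 -0.31 and for Ppp2r2b -0.019. Choroid plexus markers, led by Ttr, set apart several libraries, while replicate 1 of the 12-month WT/WT mice held the middle value of its group: their summed counts were 156, 208, 228, 262 and 203 in 2-month WT/WT, 417, 424, 24511, 428 and 185 in 2-month 304Q/304Q, 5775, 30029, 315, 281 and 14284 in 12-month WT/WT and 21371, 262, 19962, 203 and 193 in 12-month 304Q/304Q mice, replicates 1 to 5. The points of the r values share their libraries and groups, and values with the trend removed are therefore given beside each called member.

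**Figure D2:**
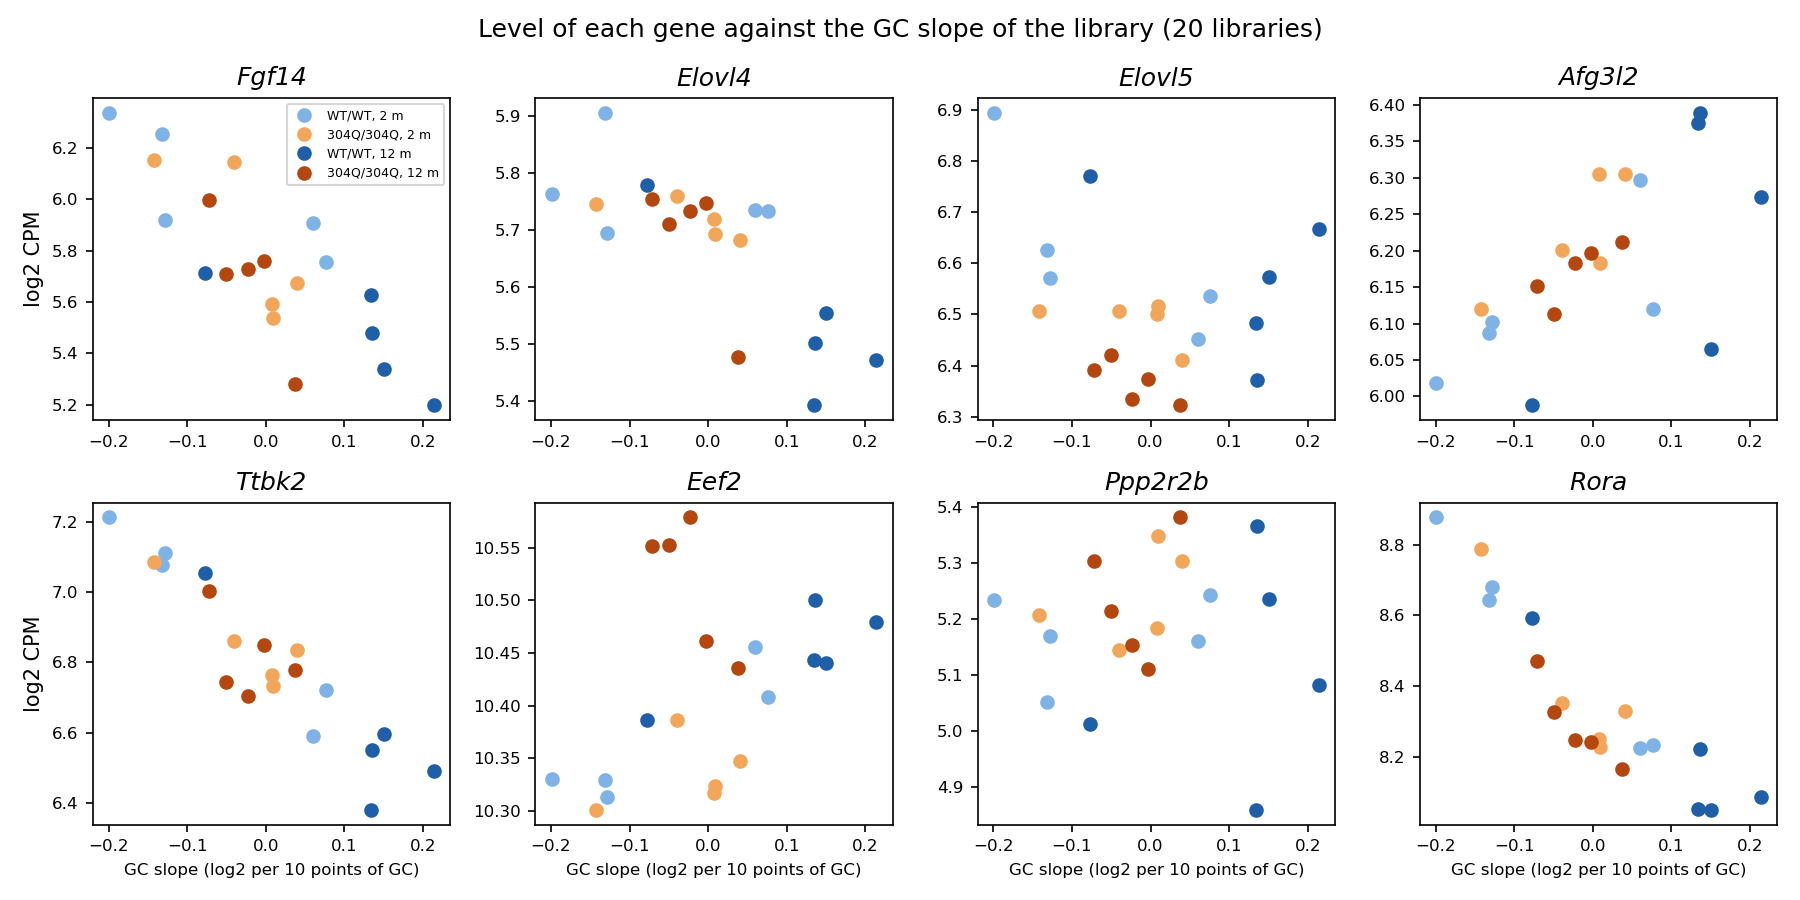
Log2 CPM of the 8 genes against the GC slope of the library (change of log2 CPM per 10 points of GC content), 1 point per mouse, coloured by group. Rora and Ttbk2 fall along the slope (r = -0.91 and -0.93, 20 libraries), and 4 of the 5 12-month WT/WT mice lie at its right end.

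The 8 genes differ widely in level. Per kilobase of merged exons, Eef2 had 5893 ± 359 normalized counts (SD over 20 libraries), above every other member in all 20 libraries and at percentile 99.7 of all genes tested. Elovl5 (372 ± 39.6) and Rora (363 ± 64.8) followed and were not separated, since Elovl5 was the higher in only 12 of 20 libraries. Elovl4 had 242 ± 20.96 normalized counts per kilobase, below Rora in all 20 libraries. Fgf14 (189 ± 42.1), Ttbk2 (142 ± 22.5), Ppp2r2b (131 ± 11.3) and Afg3l2 (105 ± 8.31) came next, and each overlapped the next in range. Dividing by the longest transcript instead gave 4 of the 8 genes another rank, with Ppp2r2b at rank 5, Afg3l2 at rank 6, Fgf14 at rank 7 and Ttbk2 at rank 8, while Eef2, Elovl5, Rora and Elovl4 kept theirs. The order of the lower 4 therefore depends on the length used.

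Fgf14 (ENSMUSG00000025551, chr14:123977907-124677127, minus strand of GRCm38) is an intracellular FGF homologous factor that sets the availability of sodium channels. At 2 months it had 1155, 864, 1089, 771 and 858 normalized counts in WT/WT replicates 1 to 5 and 663, 728, 688, 1012 and 1017 in 304Q/304Q replicates 1 to 5. At 12 months the values were 748, 635, 523, 706 and 577 in the WT/WT and 773, 747, 756, 913 and 554 in the 304Q/304Q group. The highest 12-month WT/WT mouse lay just below the lowest 2-month WT/WT mouse, whereas all other pairs of groups overlapped. By edgeR, Fgf14 fell with age in WT/WT mice, with a log2 fold change of -0.57 ± 0.14 (SE, adjusted p = 0.0120), from 948 ± 165 to 638 ± 91.7 (SD, n = 5), a change of -32.6%. With the GC trend removed the log2 fold change was -0.45 (adjusted p = 0.0163), and with surrogate variables -0.31 (0.0470). Adjusted p ranged from 0.00467 to 0.0449 when each of the 20 libraries was left out in turn, and from 0.000894 to 0.0470 over 12 other ways of processing. In 304Q/304Q mice the change with age was -0.13 ± 0.14 (SE, adjusted p = 0.687), which did not pass. The difference between the genotypes in this change was 0.44 (adjusted p = 0.293), with a 95% interval of 0.024 to 0.85, and is not a call. Between genotypes the log2 fold change was -0.21 (adjusted p = 0.919) at 2 months and 0.23 (adjusted p = 0.310) at 12 months. Surrogate variables brought the difference in change to 0.12 (adjusted p = 0.745) and the 12-month difference to -0.070 (0.748), on the other side of 0. Without the farthest library of every group they were 0.72 (adjusted p = 0.0118) and 0.39 (adjusted p = 0.0426). That choice lowers the spread by construction, so that these 2 calls are no support. An antisense gene, Gm28932, shares 220 exonic bases with Fgf14, and whether the counting used the strand is not given in the sources used here.

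Of 13 listed FGF homologous factors, sodium channel subunits and anchors, 12 were tested. At 12 months 1 was higher and 2 were lower in 304Q/304Q mice, where 12.5% of all genes were called, with a list median of 0.0078 on the log2 scale beside -0.0039 over all genes tested. Scn2a, an alpha subunit, rose by 0.40 (adjusted p = 0.00435). Scn4b, an auxiliary subunit found in Purkinje cells, changed by -0.49 (adjusted p = 2.4e-07), from 1685 to 1195 normalized counts with no overlap between genotypes. Fgf11, a paralog of Fgf14, changed by -0.38 (adjusted p = 0.000122), also with no overlap. The change with age differed between genotypes for Fgf11 (-0.38, adjusted p = 0.0173), Scn4b (-0.30, adjusted p = 0.0203) and Scn2a (0.48, adjusted p = 0.0494). With age in WT/WT mice, where 11.5% of all genes were called, 4 fell and 0 rose (median -0.11, all genes 0.0017), which were Scn2a -0.50 (adjusted p = 0.00103), Fgf13 -0.40 (adjusted p = 0.0155), Scn8a -0.18 (adjusted p = 0.0354) and the anchor Ank3 -0.24 (adjusted p = 0.0386). Ank3 did not pass with the GC trend removed (adjusted p = 0.0568). In ageing 304Q/304Q mice Fgf11 (-0.38, adjusted p = 0.000177) and Scn4b (-0.20, adjusted p = 0.00969) fell, 2 of 12 beside 7.26% of all genes. At 2 months edgeR called 0 of the 12, with 1 under an unadjusted p of 0.05 and 0 called by DESeq2, and Scn4b had the smallest unadjusted p and a log2 fold change of -0.20 (adjusted p = 0.296). Per kilobase, Fgf11 (449 ± 55.7 normalized counts, SD over 20 libraries) and Fgf12 (238 ± 45.98) stood above Fgf14, and Fgf13 (94.9 ± 14.1) below.

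Granule cell markers moved alongside the fall of Fgf14. In WT/WT mice 4 of 7 fell with age and 0 rose, with a list median of -0.32, where 11.5% of all genes were called and their median was 0.0017. Fat2, among the 4, is also counted among the further ataxia genes. Of other cell types, the markers called higher with age in WT/WT mice numbered 3 of 9 for Purkinje cells (median 0.095), 5 of 7 for microglia (median 0.73), 2 of 3 for choroid plexus (median 3.56) and 2 of 5 for blood (median 0.54). Those called lower numbered 2 of 8 for Bergmann glia and astrocytes (median 0.090), 2 of 8 for oligodendrocytes (median -0.22), 1 of 5 for oligodendrocyte precursors (median -0.028) and 1 of 1 for brainstem (median -0.28). The sums of normalized counts over the granule cell markers, led by Zic1, were 79253, 77296, 73094, 68122 and 67043 in 2-month and 64831, 60543, 58025, 59741 and 59868 in 12-month WT/WT mice, with all 2-month sums above all 12-month sums. In 304Q/304Q mice the sums were 66671, 62826, 62295, 66678 and 73714 at 2 months and 56386, 59544, 59623, 65485 and 58303 at 12 months, where 2 of 7 markers fell, beside 7.26% of all genes called. None of these 7 markers was at 0. The part of granule cell RNA, or of RNA of the other cell types counted here, in the change of Fgf14 was not tested.

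Elovl4 (ENSMUSG00000032262, chr9:83778692-83806277, minus strand) makes very long chain fatty acids. It had 775, 739, 856, 759 and 760.2 normalized counts in 2-month WT/WT mice and 784, 646, 633, 599 and 670.5 in 12-month WT/WT mice, replicates 1 to 5. The 304Q/304Q mice had 738, 732, 751, 773 and 766 at 2 months and 767, 747, 759, 770.3 and 635 at 12 months. Of the 5 older WT/WT mice, 4 lay below every younger one, and replicate 1 lay among them; in 12-month 304Q/304Q mice replicate 5 lay below the other 4. Elovl4 fell with age in WT/WT mice by edgeR, -0.22 ± 0.070 (SE, adjusted p = 0.0406), and was -0.032 ± 0.070 (SE, adjusted p = 0.866) in 304Q/304Q mice. The call was lost with the GC trend removed (-0.13, adjusted p = 0.230), with surrogate variables (-0.19, adjusted p = 0.115), with no filter on low counts (-0.23, adjusted p = 0.0828) and in a fit of the WT/WT mice alone (-0.22, adjusted p = 0.105). A replicate block also ended the call (-0.23, adjusted p = 0.0504), as did the block with the GC trend removed (-0.13, adjusted p = 0.256). DESeq2 with surrogate variables ended it too (-0.19, adjusted p = 0.0969), and the call held in 5 of 12 other ways of processing. It was also lost when replicate 1, 2 or 3 of the 2-month or replicate 2, 3, 4 or 5 of the 12-month WT/WT mice was left out, with adjusted p of up to 0.116, and ranged from 0.00197 to 0.256 over 12 other ways of processing. Between genotypes the log2 fold change was -0.049 (adjusted p = 0.958) at 2 months and 0.14 (adjusted p = 0.192) at 12 months, and the interaction was 0.19 (adjusted p = 0.344). Without WT/WT replicate 1 of 12 months the difference between genotypes at that age passed (0.21, adjusted p = 0.0328). That mouse was the highest of its group, so that leaving it out widens the difference by construction and is no support.

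Elovl5 (ENSMUSG00000032349, chr9:77917364-77984519, plus strand) extends polyunsaturated fatty acids. Normalized counts were 1559, 1183, 1451, 1278 and 1361 in the WT/WT and 1184, 1223, 1153, 1198 and 1143 in the 304Q/304Q group at 12 months. At 2 months they were 1700.1, 1358, 1411, 1325 and 1249.8 and 1308, 1215, 1293, 1299 and 1299. The older 304Q/304Q mice lay close together, and only WT/WT replicate 2 came down among them. This was the member nearest to a call between genotypes: the log2 fold change at 12 months was -0.21 ± 0.073 (SE, adjusted p = 0.0603) by edgeR, with a 95% interval of -0.36 to -0.060, from 1367 ± 147 to 1180.1 ± 32.9 (SD, n = 5). It passed the threshold with the GC trend removed (-0.24, adjusted p = 0.0159) and with surrogate variables (-0.24, adjusted p = 0.0294). It also passed without 12-month WT/WT replicate 2 (-0.26, adjusted p = 0.0214) and without 2-month WT/WT replicate 1 (-0.21, adjusted p = 0.0248). Replicate 2 was the lowest of its group, so that leaving it out widens the difference by construction and is no support. DESeq2 (adjusted p = 0.0523), RLE scaling (adjusted p = 0.0657) and no filter on low counts (adjusted p = 0.103) gave no call. In all, the 12-month difference was called in 2 of 20 fits without 1 library and 5 of 12 other ways of processing. Over 12 other ways of processing its adjusted p ranged from 0.0128 to 0.163. At 2 months the log2 fold change was -0.13 (adjusted p = 0.883), and with age -0.044 (adjusted p = 0.738) in WT/WT and -0.12 (adjusted p = 0.404) in 304Q/304Q mice.

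Among 21 listed partners in fatty acid elongation, desaturation and ceramide synthesis, 18 were tested. At 12 months the ceramide synthase Cers4 rose in 304Q/304Q mice, 0.30 (adjusted p = 0.00272), and the desaturase Fads1 fell, -0.18 (adjusted p = 0.0234), with a list median of -0.063 beside -0.0039 over all genes, 12.5% of which were called. In ageing WT/WT mice, with 11.5% of all genes called, the desaturases Fads2 (-0.19, adjusted p = 0.0153) and Scd2 (-0.14, adjusted p = 0.0275) fell and the enoyl reductase Tecr (0.16, adjusted p = 0.0436) rose. Neither Tecr (adjusted p = 0.687) nor the 12-month difference of Fads1 (adjusted p = 0.0515) passed with the GC trend removed. Ageing 304Q/304Q mice were lower in Fads2 (-0.19, adjusted p = 0.0151) and Fads1 (-0.20, adjusted p = 0.0154). At 2 months 0 of 18 were called by edgeR, with 2 under an unadjusted p of 0.05 and 0 called by DESeq2, and Cers4 had the smallest unadjusted p, with 0.22 (adjusted p = 0.468). Among the paralogs, Elovl6 had 194 ± 21, Elovl2 149 ± 16.4, Elovl1 92.6 ± 13.2 and Elovl7 49.9 ± 8.67 normalized counts per kilobase, all with means below those of Elovl5 and Elovl4, and Elovl3 was not tested.

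Afg3l2 (ENSMUSG00000024527, chr18:67404764-67449172, minus strand) is a subunit of the m-AAA protease, which clears proteins of the inner mitochondrial membrane. At 2 months the values were 925, 980.5, 970.2, 992 and 1123 normalized counts in the WT/WT and 1037, 1129, 1129.5, 1050.4 and 993 in the 304Q/304Q group. At 12 months they were 906, 1197, 1105, 1185 and 955 and 1047, 988, 1037, 1015 and 1058. All groups overlapped, and the 12-month 304Q/304Q mice spread least, with a coefficient of variation of 2.72% beside 12.4% in WT/WT mice of that age. Log2 fold changes were 0.10 (adjusted p = 0.933) between genotypes at 2 months and -0.057 (adjusted p = 0.654) at 12 months, 0.10 (adjusted p = 0.384) with age in WT/WT and -0.052 (adjusted p = 0.774) in 304Q/304Q mice. Without 1 library, the 12-month difference ranged from -0.11 to -0.017 and the change in WT/WT mice from 0.056 to 0.15, with 0 calls. Over 12 other ways of processing the latter ranged from 0.0016 to 0.20. Its 1 call (adjusted p = 0.0326) came without the farthest library of every group, which lowers the spread by construction. The interaction, -0.15 (adjusted p = 0.473), was also called in that fit (-0.29, adjusted p = 0.0442). All 16 listed mitochondrial proteases and partners were tested. With age in WT/WT mice Lonp1 (0.20, adjusted p = 0.0179) and Clpp (0.23, adjusted p = 0.0385), which are matrix proteases, rose, and Opa1 (-0.28, adjusted p = 0.00320), which shapes the inner membrane, fell. Lonp1 (adjusted p = 0.217) and Clpp (adjusted p = 0.335) did not pass with the GC trend removed. In the other comparisons of groups edgeR called 0 of 16, with 1 under an unadjusted p of 0.05 and 0 called by DESeq2 between genotypes at 2 months, 4 under an unadjusted p of 0.05 and 1 called by DESeq2 at 12 months, and 3 under an unadjusted p of 0.05 and 1 called by DESeq2 with age in 304Q/304Q mice. The smallest unadjusted p belonged to Phb at 12 months (-0.22, adjusted p = 0.0535) and Afg3l1 with age in 304Q/304Q mice (-0.23, adjusted p = 0.0532). The list median was 0.085 between genotypes at 12 months and 0.018 with age in WT/WT mice, comparisons in which 12.5% and 11.5% of all genes were called. Per kilobase Spg7, which joins Afg3l2 in the protease, had 169.6 ± 14.8 normalized counts and the paralog Afg3l1 109 ± 10.9.

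Eef2 (ENSMUSG00000034994, chr10:81176631-81182498, plus strand) is the elongation factor that translocates the ribosome. In 304Q/304Q mice it had 18326, 18631, 18241, 19141 and 18039 normalized counts at 2 months and 20161, 21480.4, 21879.7, 21467 and 19807 at 12 months. In WT/WT mice it had 18409, 18198, 18398, 19437 and 20089 at 2 months and 19146, 20719.6, 20419.8, 19913 and 19873 at 12 months. Every older 304Q/304Q mouse lay above every younger one, whereas replicates 4 and 5 of the younger WT/WT mice lay within the range of the older ones. Eef2 rose with age in 304Q/304Q mice, with a log2 fold change of 0.18 ± 0.038 (SE, adjusted p = 0.00291) by edgeR, a change of 13.4% from 18476 ± 428 to 20959 ± 914 (SD, n = 5). The call held in each of 20 fits without 1 library, with adjusted p between 0.00174 and 0.0117. With the GC trend removed the rise was 0.17 (adjusted p = 0.00107). In WT/WT mice the change was 0.082 ± 0.038 (SE, adjusted p = 0.161), and the interaction 0.10 (adjusted p = 0.364), so that a difference between the genotypes was not called. In the fit with the GC trend removed the change in WT/WT mice was -0.029 (adjusted p = 0.666) and the interaction 0.20 (0.0237), which then passed. The difference between genotypes at 12 months, 0.066 (adjusted p = 0.266), also passed there (0.14, adjusted p = 0.00609). Over 12 other ways of processing adjusted p ranged from 0.00609 to 0.783 for this difference and 4.3e-07 to 0.0178 for the rise in 304Q/304Q mice, and over 11 from 0.0237 to 0.590 for the interaction. The difference at 12 months was 0.022 with surrogate variables (adjusted p = 0.783), and at 2 months -0.033 (adjusted p = 0.951).

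All 16 listed elongation factors and modifiers of eEF2 were tested. Eef1a1, which brings aminoacyl-tRNA to the ribosome, rose with age in the WT/WT group (0.14, adjusted p = 0.0408) and the 304Q/304Q group (0.21, adjusted p = 0.00475). Eef1d, an exchange factor for it, rose with age in WT/WT mice (0.23, adjusted p = 0.0212) and at 12 months was lower in the 304Q/304Q group (-0.21, adjusted p = 0.0271). Neither call of Eef1d held with the GC trend removed (adjusted p = 0.103 with age and adjusted p = 0.113 between genotypes). In the comparisons of groups these were the genes edgeR called. At 2 months it called 0 of 16, with 0 under an unadjusted p of 0.05 and 0 called by DESeq2, and Dph1, of diphthamide synthesis, had the smallest unadjusted p (0.22, adjusted p = 0.933). The list median was 0.0073 between genotypes at 12 months and 0.074 with age in WT/WT mice, comparisons in which 12.5% and 11.5% of all genes were called. Microglial markers also rose with age: 5 of 7 tested did so in each genotype, where 11.5% (WT/WT) and 7.26% (304Q/304Q) of all genes were called, with medians of 0.73 (WT/WT) and 0.62 (304Q/304Q). Their summed normalized counts, led by Csf1r, were 1510.4, 1568, 1452, 1699 and 1595 in 2-month and 2692, 2901, 3081, 2659.8 and 2262 in 12-month 304Q/304Q mice. In WT/WT mice of 2 and 12 months the sums were 1586, 1497, 1638, 1734 and 1721 and 2249, 2266, 2828, 2548 and 2652. Of other cell types, the markers called higher with age in 304Q/304Q mice numbered 1 of 8 for Bergmann glia and astrocytes (median -0.24). Those called lower numbered 5 of 9 for Purkinje cells (median -0.27), 2 of 7 for granule cells (median -0.14), 5 of 8 for Bergmann glia and astrocytes (median -0.24), 5 of 8 for oligodendrocytes (median -0.52), 1 of 5 for oligodendrocyte precursors (median -0.045), 1 of 5 for endothelial cells (median -0.010) and 1 of 1 for brainstem (median -0.39). The part of any of these cell types in the change of Eef2 was not tested.

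Ttbk2 (ENSMUSG00000090100, chr2:120732816-120850604, minus strand) is a tau tubulin kinase that licenses cilium growth. WT/WT mice had 2120.0, 1975, 1928, 1506 and 1377 normalized counts at 2 months and 1899, 1339.6, 1284, 1189 and 1382 at 12 months. In 304Q/304Q mice the values were 1519, 1629.7, 1552, 1659 and 1941 and 1646, 1531, 1489.9, 1831 and 1567. Replicates 1 to 3 of the younger WT/WT mice and replicate 1 of the older ones were high, and the ages overlapped. With age in WT/WT mice the log2 fold change was -0.33 ± 0.12 (SE, adjusted p = 0.0648) by edgeR, not a call, with a 95% interval of -0.57 to -0.090. DESeq2 called it (-0.33, adjusted p = 0.0369), as did edgeR without 12-month WT/WT replicate 1 (-0.45, adjusted p = 0.00346). It also passed without replicate 4 (-0.38, adjusted p = 0.0323) or replicate 5 (-0.41, adjusted p = 0.0180) of the 2-month WT/WT mice, and with no filter on low counts (-0.33, adjusted p = 0.0435). Replicate 1 was the highest of the 12-month WT/WT mice, and replicates 4 and 5 the lowest of the 2-month ones. Leaving out any of these mice deepens the fall by construction and is no support. Of 20 fits without 1 library, 3 called the change with age in WT/WT mice. Over 12 other ways of processing adjusted p ranged from 0.000134 to 0.211. With the GC trend removed it was -0.21 (adjusted p = 0.130), and with surrogate variables -0.14 (adjusted p = 0.211). At 12 months the difference between genotypes was 0.19 (adjusted p = 0.310), and without WT/WT replicate 1 of that age 0.31 (adjusted p = 0.0355), which passes. Leaving out this highest WT/WT mouse widens the difference by construction, so that the pass is no support. Ttbk2 shares 3409 exonic bases on the same strand with Cdan1, and reads of the 2 genes there may not be told apart. Of 14 listed cilium partners, all tested, Ccp110 (-0.22, adjusted p = 0.0288) and Ift88 (-0.33, adjusted p = 0.0499) fell with age in WT/WT mice, though neither passed with the GC trend removed (adjusted p = 0.193 and adjusted p = 0.329). In the other comparisons edgeR called 0 of 14, with 0 under an unadjusted p of 0.05 and 0 called by DESeq2 between genotypes at 2 months, 4 under an unadjusted p of 0.05 and 1 called by DESeq2 at 12 months, and 1 under an unadjusted p of 0.05 and 0 called by DESeq2 with age in 304Q/304Q mice. The smallest unadjusted p belonged to Mapre1 at 2 months (0.11, adjusted p = 0.890) and 12 months (0.17, adjusted p = 0.0645) and to Cep83 with age in 304Q/304Q mice (-0.18, adjusted p = 0.200). The list median was 0.046 between genotypes at 12 months and -0.032 with age in WT/WT mice, comparisons in which 12.5% and 11.5% of all genes were called. The paralog Ttbk1 had 198 ± 13.6 normalized counts per kilobase, above Ttbk2 in mean.

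Ppp2r2b (ENSMUSG00000024500, chr18:42637432-43059471, minus strand) directs protein phosphatase 2A to substrates in neurons. At 2 months there were 536, 512, 472, 539 and 509 normalized counts in the WT/WT and 580.5, 563, 518, 504 and 526 in the 304Q/304Q group. At 12 months there were 459.6, 588, 482, 413 and 536 and 492, 528, 507, 563 and 594. All groups overlapped. Log2 fold changes ran from -0.052 (adjusted p = 0.725) with age in WT/WT mice to 0.12 (adjusted p = 0.389) between genotypes at 12 months, with 0.068 (adjusted p = 0.952) at 2 months and -0.0043 (adjusted p = 0.985) with age in 304Q/304Q mice. An antisense gene, 4933407I08Rik, shares 169 exonic bases with it. All 17 listed subunits and regulators of the phosphatase were tested. At 12 months Ppp2r5b, a regulatory subunit, rose in 304Q/304Q mice (0.21, adjusted p = 0.00351) and the methylesterase Ppme1 fell (-0.17, adjusted p = 0.0476), which did not pass with the GC trend removed (adjusted p = 0.140). With age in 304Q/304Q mice Ppp2r5b rose (0.16, adjusted p = 0.0406) and Ppp2r2c, the most abundant paralog, fell (-0.21, adjusted p = 0.00869). At 2 months (Ppp2r1a, 0.056, adjusted p = 0.933) and with age in WT/WT mice (Ppp2r3c, -0.30, adjusted p = 0.0652) 0 of 17 were called by edgeR, with 0 under an unadjusted p of 0.05 and 0 called by DESeq2 at 2 months, and 6 under an unadjusted p of 0.05 and 0 called by DESeq2 with age. The list median was -0.0015 between genotypes at 12 months and 0.027 with age in WT/WT mice, comparisons in which 12.5% and 11.5% of all genes were called. Per kilobase, Ppp2r2c had 1705 ± 134 normalized counts, far above Ppp2r2a (182 ± 12.5), Ppp2r2b and Ppp2r2d (123 ± 8.99).

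Rora (ENSMUSG00000032238, chr9:68653786-69388246, plus strand) is the orphan receptor missing in staggerer mice. At 2 months it had 6726, 5862, 5719.6, 4301 and 4280.3 normalized counts in the WT/WT and 4289, 4604, 4352, 4673 and 6318 in the 304Q/304Q group. At 12 months it had 5520.5, 4266, 3884, 3798 and 3788 in the WT/WT and 4332, 4591, 4348, 5074 and 4104 in the 304Q/304Q group. The high values were those of the libraries that were also high for Ttbk2, and every group overlapped the others. With age in WT/WT mice the log2 fold change was -0.34 ± 0.12 (SE, adjusted p = 0.0742) by edgeR, not a call, and -0.45 without 12-month WT/WT replicate 1 (adjusted p = 0.00865), which passes. It also passed without replicate 4 (-0.41, adjusted p = 0.0290) or 5 (-0.41, adjusted p = 0.0299) of 2-month WT/WT or replicate 5 of 2-month 304Q/304Q mice (-0.34, adjusted p = 0.0444), and with no filter on low counts (-0.34, adjusted p = 0.0408). Replicate 1 was the highest of the 12-month WT/WT mice, and replicates 4 and 5 the lowest of the 2-month ones. Leaving out any of these WT/WT mice deepens the fall by construction and is no support. Leaving out the 304Q/304Q mouse, the highest of its group, lowers the spread. Of 20 fits without 1 library, 4 called the change with age in WT/WT mice. Over 12 other ways of processing adjusted p ranged from 0.000275 to 0.361. With the GC trend removed it was -0.22 (adjusted p = 0.137), and with surrogate variables -0.10 (adjusted p = 0.361). In 304Q/304Q mice the change with age was -0.11 (adjusted p = 0.705), and between genotypes -0.15 (adjusted p = 0.933) at 2 and 0.079 (adjusted p = 0.720) at 12 months. The latter was -0.0040 with the GC trend removed, on the other side of 0. An antisense gene, Gm15511, shares 82 exonic bases with Rora.

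Of 11 listed receptors of the ROR and Rev-erb families and Purkinje cell genes reported as targets of Rora, 10 were tested. At 12 months 6 of 10 were lower in 304Q/304Q mice and 0 higher, with a list median of -0.27 beside -0.0039 over all genes tested, of which 12.5% were called. Nr1d1, a Rev-erb receptor that competes with RORs for their element, changed by -0.60 (adjusted p = 7.9e-08), from 4463 to 2945 normalized counts. Pcp2 (-0.59, adjusted p = 4.2e-05), the glutamate transporter Slc1a6 (-0.31, adjusted p = 0.000110) and Pcp4 (-0.65, adjusted p = 0.000270), all of Purkinje cells, fell with no overlap between genotypes, as did Nr1d1. At 2 months 0 of 10 were called by edgeR, with 0 under an unadjusted p of 0.05 and 0 called by DESeq2, and Itpr1 had the smallest unadjusted p (-0.13, adjusted p = 0.883). With age in WT/WT mice 3 rose and 0 fell, beside 11.5% of all genes called, among them Pcp2 (0.37, adjusted p = 0.00808) and Slc1a6 (0.19, adjusted p = 0.0148). Log2 fold changes of the 10 ran from -0.13 to 0.49 there. With age in 304Q/304Q mice 1 rose and 4 fell, beside 7.26% of all genes called, among them Nr1d1 (-0.46, adjusted p = 5.0e-06), Calb1 (-0.29, adjusted p = 0.000770) and Itpr1 (-0.22, adjusted p = 0.0362), which fell. In that comparison the 10 ran from -0.46 to 0.50. For 4 of the 10 the change with age was called lower in 304Q/304Q mice by the interaction test, beside 1.95% of all genes. The count of 4 called lower with age in 304Q/304Q mice became 2 without replicate 1, 2 or 3 of 2-month 304Q/304Q mice and 2 without replicate 2 or 3 of 12-month 304Q/304Q mice. The count of 4 called lower by the interaction test became 2 without replicate 3 of 12-month WT/WT mice. The count of 3 called higher with age in WT/WT mice became 1 with surrogate variables by edgeR. Rora itself was called in none of these comparisons by edgeR. The paralog Rorb had 16.4 ± 2.46 normalized counts per kilobase, below Rora.

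The 8 genes stand beside 24 further genes of ataxias outside the polyglutamine group, of which 20 were tested. At 12 months 9 of 20 were lower in 304Q/304Q mice and 1 higher, beside 12.5% of all genes called, with a list median of -0.18, where all genes tested had -0.0039 and the 8 members 0.10. Plekhg4, a guanine nucleotide exchange factor, changed most, -1.19 (adjusted p = 1.4e-07). Pld3, a phospholipase D family protein, rose by 0.23 (adjusted p = 0.00734). At 2 months 0 of 20 were called by edgeR, with 3 under an unadjusted p of 0.05 and 0 called by DESeq2, and Fat2 had the smallest unadjusted p (-0.29, adjusted p = 0.305). In ageing WT/WT mice 3 rose and 2 fell, beside 11.5% of all genes called, among them Fat2 (-0.35, adjusted p = 0.00380), Stub1 (0.29, adjusted p = 0.00914), Plekhg4 (0.44, adjusted p = 0.0121) and Kcnd3 (-0.25, adjusted p = 0.0310). In ageing 304Q/304Q mice 1 rose and 7 fell, beside 7.26% of all genes called, among them Plekhg4 (-0.47, adjusted p = 0.0110), which fell, and Pld3 (0.23, adjusted p = 0.0117), which rose. For 6 of the 20 the interaction test called the change with age lower in 304Q/304Q mice and for 0 higher, beside 1.95% of all genes called. The count of 7 called lower with age in 304Q/304Q mice became 4 without replicate 1 of 2-month 304Q/304Q mice, 3 without replicate 2 of 2-month 304Q/304Q mice and 4 without replicate 1, 2 or 3 of 12-month 304Q/304Q mice. The count of 6 called lower by the interaction test became 3 without replicate 2 or 3 of 2-month WT/WT mice and 3 without replicate 3 of 12-month WT/WT mice. The count of 3 called higher with age in WT/WT mice became 5 without replicate 1 of 12-month WT/WT mice, 0 with the GC trend removed and 1 with surrogate variables by edgeR. The count of 2 called lower with age in WT/WT mice became 1 without replicate 1 or 2 of 2-month WT/WT mice, 4 without replicate 1 of 12-month WT/WT mice and 1 without replicate 3 or 5 of 12-month WT/WT mice. With the GC trend removed 2 were called lower by the interaction test. With age in WT/WT mice Stub1 (0.15, adjusted p = 0.112) and Plekhg4 (0.33, adjusted p = 0.0820) did not pass with the GC trend removed, whereas Fat2 (-0.39, adjusted p = 0.000234) and Kcnd3 (-0.24, adjusted p = 0.0352) did. The members and these genes were not compared by a test.

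Markers of several cell types moved with these lists. Of the Purkinje cell markers, 7 of 9 were lower at 12 months in 304Q/304Q mice and 0 higher, beside 12.5% of all genes called, with a list median of -0.28. Their summed normalized counts, led by Itpr1, were 114578, 112229, 109125, 104728 and 107704 in the WT/WT and 89256, 87574, 86198, 92483 and 89663 in the 304Q/304Q group of 12 months, with no overlap. At 2 months the sums were 119830.0, 110903, 110557, 108597 and 106367 in the WT/WT and 100898, 109029, 101329, 103538 and 109765 in the 304Q/304Q group. Itpr1, Calb1, Pcp2 and Slc1a6 are both markers of Purkinje cells and listed genes, as Fat2 is a granule cell marker among the ataxia genes, so that the counts are not independent. Of other cell types, the markers called higher in 12-month 304Q/304Q mice numbered 1 of 3 for unipolar brush cells (median 0.051) and 1 of 7 for microglia (median 0.11). Those called lower numbered 1 of 3 for unipolar brush cells (median 0.051), 3 of 8 for Bergmann glia and astrocytes (median -0.10), 3 of 8 for oligodendrocytes (median -0.28), 1 of 5 for endothelial cells (median -0.15) and 4 of 5 for blood (median -1.002). Summed counts of 8 oligodendrocyte markers, led by Mbp, were 76661, 73162, 83283, 78194 and 80923 in WT/WT mice of 12 months and 54456, 66716, 64979.8, 47929 and 50993 in 304Q/304Q mice of that age, without overlap. At 2 months they were 82499, 90724, 78886, 85200.3 and 80189 and 74458, 77709, 70692, 69269 and 68475, also without overlap. Those of 8 markers of Bergmann glia and astrocytes, led by Aldoc, were 76271, 77606, 80128, 76751 and 77965 and 63191, 65693, 64732, 67602 and 63400.5 at 12 months, again without overlap, and 81197, 78850.5, 77515, 76336 and 74773 and 76554, 74510.2, 71767, 75735 and 77607 at 2 months. Those of 5 blood genes, led by Hbb-bs, were 1660.1, 2899.7, 3526, 2861 and 3175 and 1531, 1469, 1461, 1376 and 1599 at 12 months and 1341, 1491, 3244, 1868 and 1522 and 1959.6, 1812, 1676, 2173 and 3107 at 2 months, each WT/WT first. Sums of 4 unipolar brush cell markers, of which Calb2 is the most abundant, were higher in 304Q/304Q mice without overlap at both ages: 11505, 11286, 10948, 10147 and 11422 against 13155, 13051, 13669, 13918 and 13841 at 12 months, and 11992, 11640.0, 12473, 11701 and 10643 against 13150.4, 13321, 13384, 12645 and 12872 at 2 months, in the same order. Calb2 alone had 5718 to 6947 normalized counts in WT/WT and 8882 to 9681 in 304Q/304Q mice at 12 months. At 2 months it had 5850 to 7479 and 7581 to 9024. Log2 fold changes of the 3 markers tested ran from -2.06 to 0.53 at 12 months. At 2 months they ran from -0.88 to 0.37, with a median of -0.057 and 1 called higher. The higher sums therefore do not stand for a rise shared by these markers. No marker on these lists was at 0. The part of any of these cell types in the values of the lists was not tested.

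**Figure D3:**
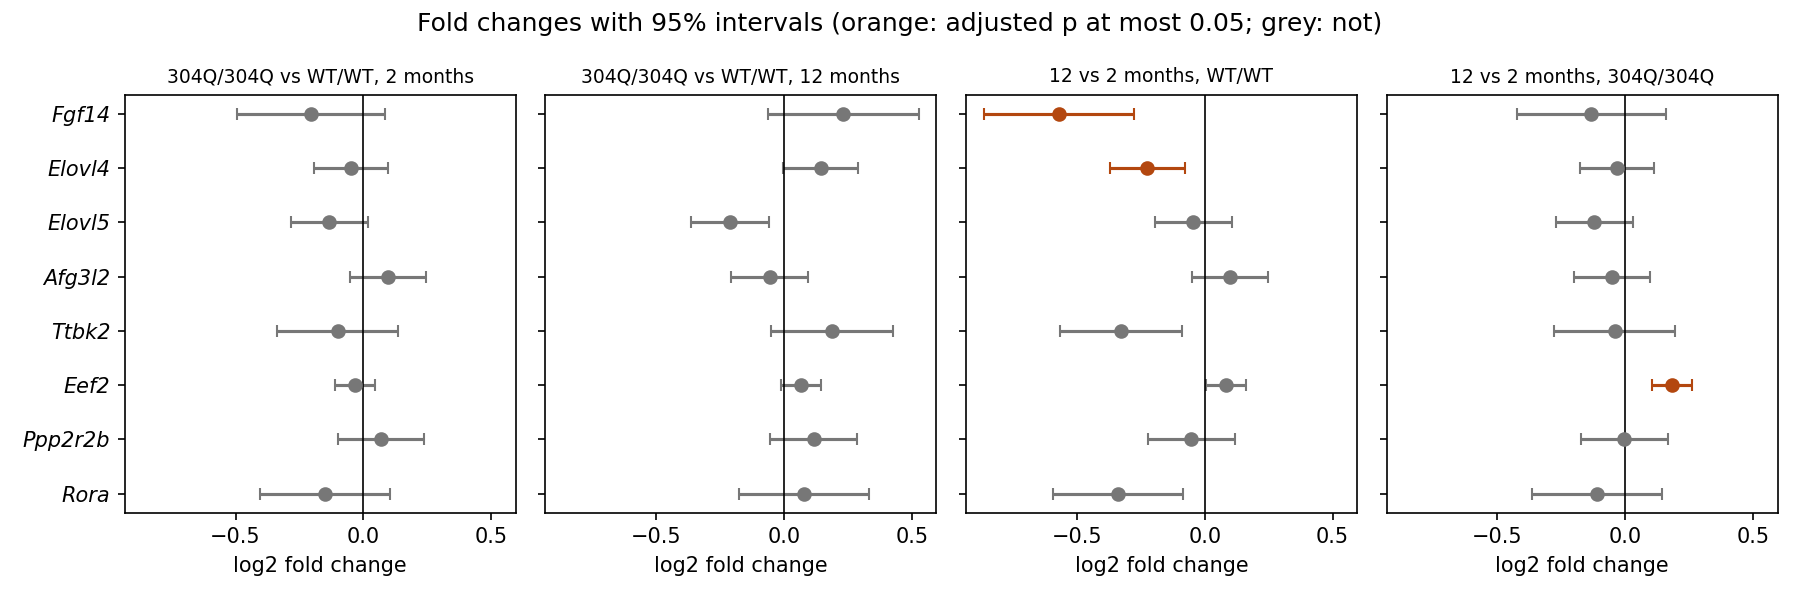
Log2 fold changes of the 8 genes in the 4 comparisons of groups, with 95% intervals from the edgeR fit of 20 libraries; orange points have an adjusted p of at most 0.05. Fgf14 (-0.57) and Elovl4 (-0.22) lie left of 0 with age in WT/WT mice, and Eef2 (0.18) right of it with age in 304Q/304Q mice.

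The members fell into sets that varied together over the 20 libraries, given here as a description since the points share libraries and groups. Ttbk2 and Rora had a Pearson r of 0.93 in log2 CPM, and 0.93 after the group means were subtracted. Fgf14 followed Rora (0.80), Elovl4 (0.75) and Ttbk2 (0.72). Afg3l2 ran the other way, with r of -0.71 to Ttbk2 and -0.62 to Rora. After the group means were subtracted, r of Fgf14 was 0.72 to Rora, 0.59 to Elovl4 and 0.59 to Ttbk2, that of Afg3l2 -0.74 to Ttbk2 and -0.61 to Rora, and the most negative was -0.74, of Elovl5 and Afg3l2. Ppp2r2b had r over all libraries between -0.33 and 0.12 with the others. The same 4 genes that varied together followed the GC slope of the libraries, and how much of these r values that carries was not tested. Of all genes tested, those most like Fgf14 over the 20 libraries were Mrpl1 (r = 0.91), Cnr1 (0.90) and Phf20l1 (0.90). For Elovl4 they were C330007P06Rik (r = 0.86), Pfn2 (0.86) and Ss18 (0.85), and for Elovl5 Stk32a (r = 0.88), Tsc22d3 (0.87) and Eomes (0.86). Afg3l2 was most like P4hb (r = 0.82), Wwp2 (0.80) and Timeless (0.79), and Ttbk2 most like Dnm1l (r = 0.95), Fzd3 (0.95) and Slc39a10 (0.95). The nearest to Eef2 were Ctsz (r = 0.89), Gtf2f1 (0.89) and C1qa (0.88), and to Ppp2r2b Dcp1a (r = 0.79), Celsr2 (0.68) and Gpc4 (0.67). Among the nearest to Rora were Mindy2 (r = 0.97) and Pank3 (0.96).

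Promoter sequence is shown for the 3 members with a call and for Elovl5, the paralog of Elovl4 and the member nearest to a call between genotypes. Windows of RefSeq (GRCm38.p6) were found for 6 of the 8 members by symbol, 250 bases before to 50 bases from each annotated start, and each run below holds the last 100 bases before the start and the first 20 from it, 5′ to 3′ on the gene's strand. The 6 motifs searched on both strands were TATAAA (held by 13.6% of the 32851 promoters listed, each of 300 bases), GGGCGG (held by 35.7%), CACGTG (held by 7.15%), TGACGTCA (held by 1.79%), TAGGTCA (held by 2.61%) and TGGGTCA (held by 3.98%). Capitals mark a match.
Fgf14 (chr14:124192527-124192646, minus strand): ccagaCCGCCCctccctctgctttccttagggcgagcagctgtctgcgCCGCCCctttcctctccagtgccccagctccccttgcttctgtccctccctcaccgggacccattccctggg
Elovl4 (chr9:83806286-83806405, minus strand): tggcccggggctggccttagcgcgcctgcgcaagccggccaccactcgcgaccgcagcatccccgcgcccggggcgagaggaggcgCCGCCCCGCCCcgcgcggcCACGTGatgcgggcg
Elovl5 (chr9:77917265-77917384, plus strand): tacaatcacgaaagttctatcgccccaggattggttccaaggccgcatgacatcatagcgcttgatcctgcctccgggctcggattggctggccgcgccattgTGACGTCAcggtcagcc
Eef2 (chr10:81176531-81176650, plus strand): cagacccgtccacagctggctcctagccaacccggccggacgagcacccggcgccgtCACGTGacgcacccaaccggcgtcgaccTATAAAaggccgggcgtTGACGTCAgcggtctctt
The Fgf14 and Elovl4 runs hold GGGCGG on the strand opposite the gene, and Elovl4 also CACGTG. Both windows of Ttbk2 also hold GGGCGG. Eef2 holds TATAAA, then also CACGTG upstream of it and TGACGTCA at the start. Elovl5 holds TGACGTCA in the run shown and CACGTG farther upstream. The Fgf14 start listed lies inside the annotated span of the gene. A match is a description of letters and shows no binding.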

How the data were processed

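Total RNA was sequenced after polyA selection with stranded libraries, and raw counts per Ensembl gene were deposited by the authors, who aligned reads with STAR (2.4.5b per the labels, whereas the study's methods give another version). Whether counting used the strand is not stated. Genes averaging 50 or more counts in the 20 libraries were tested by edgeR 4.0.16 (quasi-likelihood F test, TMM scaling, a term per group) in R 4.3.3, two-sided, with Benjamini-Hochberg adjustment over all genes. Called means an adjusted p of at most 0.05. Normalized counts are counts scaled by TMM to the mean library total. Log2 CPM used a prior count of 2. Fits were checked on simulated data, the outcome of which is not given here. Counting error is smaller than the spread between mice: chi-square per degree of freedom between pairs of libraries of a group was at least 4.43. The members and gene lists were chosen with earlier results of these data known. Named genes are all 8 members, Atxn3, direct paralogs by level, the 3 genes most correlated with each member, and from each list in each comparison of groups up to 4 called genes by smallest adjusted p, or the gene with the smallest unadjusted p where none was called; interaction values of listed genes and values with the GC trend removed were added after the data were seen. Some genes this rule names are not reported here. The comparisons share groups, so that they are not independent. Alternatives were DESeq2 1.42.0, surrogate variables (sva 3.50.0, 3 variables), RLE scaling, other filters, a replicate block (replicate number as a further term of the edgeR fit), GC offsets, fits of the groups compared, each library left out, and lengths of the longest transcript. Figures were drawn with matplotlib 3.10.9 in Python 3.11.15.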

Additional observations from a re-analysis of the deposited data

Results flagged for a closer look

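In 5 of 32 checks, 8 genes in 4 groups, 1 mouse lay apart from the other 4 by more than 0.71 of the range of its group, a limit that chance passes in about 1 in 20 groups. Replicate 1 of the 12-month WT/WT mice was high for Rora, at 5520.5 normalized counts with the nearest mouse at 4266, and for Ttbk2, at 1899 with the nearest at 1382. Replicate 5 of the 2-month 304Q/304Q mice was high for Rora, at 6318 with the nearest at 4673. Replicate 5 of the 12-month 304Q/304Q mice was low for Elovl4, at 635 with the nearest at 747. Replicate 2 of the 2-month 304Q/304Q mice was low for Elovl5, at 1215 with the nearest at 1293. The GC slopes of 12-month WT/WT replicate 1 and 2-month 304Q/304Q replicate 5 were -0.077 and -0.14, each the lowest of its group. Those of 12-month 304Q/304Q replicate 5 and 2-month 304Q/304Q replicate 2 were 0.038 and 0.040, each the highest of its group. The part of the GC slopes in these values was not tested.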

How the results depend on the processing

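The fall of Fgf14 with age in WT/WT mice and the rise of Eef2 with age in 304Q/304Q mice kept direction and call in all 20 fits without 1 library and in all 12 other alternatives, from -0.64 to -0.49 and from 0.17 to 0.20 on the log2 scale without 1 library. Without 1 library, 1 to 4 members were called with age in WT/WT mice, 0 to 2 between genotypes at 12 months, and 1 to 1, 0 to 0 and 0 to 0 with age in 304Q/304Q mice, between genotypes at 2 months and by the interaction. Genes called over all genes tested then ranged from 3 to 10 between genotypes at 2 months, 1040 to 2070 at 12 months, 717 to 2540 and 668 to 969 with age in WT/WT and 304Q/304Q mice, and 155 to 555 for the interaction. Changes that crossed 0 without 1 library were those with age of Elovl5 (-0.10 to 0.032) and Ppp2r2b (-0.12 to 0.0078) in WT/WT mice, of Ppp2r2b (-0.047 to 0.026), Ttbk2 (-0.091 to 0.022), Rora (-0.16 to 0.0039) and Elovl4 (-0.049 to 0.013) in 304Q/304Q mice, and the interaction of Ppp2r2b (-0.012 to 0.11); none of them was a call. With surrogate variables, 1 member was called between genotypes at 12 months and 1 with age in WT/WT mice by edgeR and by DESeq2. Values that reversed were, by edgeR and DESeq2, Ttbk2 at 2 months (0.011 and 0.013), Fgf14 (-0.070 and -0.062) and Rora (-0.036 and -0.028) between genotypes at 12 months, and with age Elovl5 in WT/WT (0.049 and 0.046) and Ppp2r2b in 304Q/304Q mice (0.019 and 0.021). Genes called were 44 and 52 at 2 months and 1510 and 1659 with age in 304Q/304Q mice, 820 with age in WT/WT mice by edgeR, and 420 for the interaction by DESeq2. DESeq2 alone called 22 genes at 2 months and 395 for the interaction, and no filter on low counts gave 10 at 2 months, and with age in WT/WT mice called Ttbk2 and Rora but not Elovl4. With the GC trend removed, 2 members were called at 12 months (Elovl5 and Eef2), 1 with age in WT/WT mice and 1 by the interaction, 15 genes were called at 2 months, and Rora at 12 months (-0.0040), Elovl5 (0.015) and Eef2 (-0.029) with age in WT/WT mice and Ppp2r2b in 304Q/304Q mice (0.015) reversed. Replicate numbers did not in general pair the mice: 6 of 30 pairs with the same number correlated above 0.1 over genes, with group means removed, and 4 of 30 were best with their own number (-0.32 to 0.55). The highest r, 0.55, was that of replicate 1 in 2-month and 12-month WT/WT mice, where other numbers gave -0.28 to -0.047. Replicate 4 of these groups, at 0.27, was also best with its own number. A factor shared by such libraries was not tested. With a replicate block, 1 member was called at 12 months (Elovl5, -0.21) and 1 with age in WT/WT mice. Block and GC correction together gave 2, 1 and 1 members at 12 months, with age in WT/WT mice and by the interaction, 14 genes at 2 months, 894 with age in WT/WT mice, and reversed Elovl5 (0.016) and Eef2 (-0.029) in WT/WT and Ppp2r2b (0.015) in 304Q/304Q mice. A fit of the WT/WT mice alone, with fewer samples, called 1 member and 739 genes with age. An alternative chosen after seeing the data left out, in every group, the library farthest from the rest over all genes. This lowers the spread within groups by construction, so that its higher counts are no support: 11 genes at 2 months, 3 members and 2502 genes at 12 months, 6 and 3176 with age in WT/WT mice, and 5 and 1897 by the interaction. Reversed there were Fgf14 (0.049), Elovl4 (0.024), Ttbk2 (0.032) and Rora (0.034) with age in 304Q/304Q mice and the interactions of Elovl5 (0.031) and Ppp2r2b (-0.023). By the longest transcript 4 of the 8 genes kept their rank by level. Where not stated, the cause was not tested.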
